A study of Mus musculus with 16 samples.

Results

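The genes described here are the Wnt module: the secreted Wnt ligands, their Frizzled and LRP receptors, the secreted proteins that bind and block ligands or receptors, and the intracellular genes Axin2 and Lef1. Members were chosen by a rule on gene symbols, set with earlier results of these data known. The rule took every symbol of the form Wnt, Fzd, Sfrp1 to 5 or Dkk1 to 4, plus Lrp5, Lrp6, Axin2, Lef1 and Wif1. Each had to be on a probe set with exactly 1 symbol. The brightest probe set stood for each gene. This gave 42 of the 19938 genes tested: 19 Wnt ligands, 12 receptors (10 Fzd genes, Lrp5 and Lrp6), 9 secreted inhibitors (4 Sfrp genes, 4 Dkk genes and Wif1) and 2 intracellular members. A probe set with the single symbol Sfrp3 was not found, and the gene also known by that name, Frzb, is counted below among the regulators.

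Total RNA of mouse embryonic fibroblasts, cultured connective tissue cells, was hybridised to Affymetrix whole-transcript arrays, 1 for each of 16 plates. The groups, of 4 plates each, were Atf5-knockdown cells (stable expression of a short hairpin RNA against Atf5) with MG132 or with vehicle, and control cells (wild type, carrying a scramble hairpin) with MG132 or with vehicle. MG132, a proteasome inhibitor, was given at 1 µM for 8 h, and the vehicle was DMSO for the same 8 h. Atf5 codes for an ATF/CREB family transcription factor. The labels describe 1 knockdown line and 1 control line, so the knockdown and other differences between the lines cannot be told apart, and they do not say that the plates were separate cultures, so each p-value reflects the spread of these plates alone, which may be technical.

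Wnt proteins are lipid-modified secreted ligands that bind a Frizzled receptor together with the co-receptor LRP5 or LRP6. In the canonical branch this stops the destruction complex, which holds Axin and APC, from marking beta-catenin for the proteasome; beta-catenin then acts with TCF/LEF factors on target genes, Axin2 among them. Other branches, such as planar cell polarity signalling, use Frizzled receptors without beta-catenin. Fibroblasts both secrete and receive Wnt signals in connective tissue, and secreted inhibitors of the Dkk, Sfrp and Wif families set their range.

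All values below are the authors' deposited log2 intensities, and a difference of 1 on this scale is a doubling. Differences are taken within a probe set. Ranks between probe sets, used only for the marker check and for dim members, also carry how well each probe binds. Array medians lay between 7.71 and 7.82. Atf5 read 8.45, 8.43, 8.45 and 8.49 in knockdown cells with MG132, against 8.75, 8.72, 8.68 and 8.91 in control cells with MG132, and 8.32, 8.39, 8.28 and 8.41 in knockdown cells with vehicle, against 8.68, 8.51, 8.46 and 8.62 in control cells with vehicle. Within each treatment every knockdown array lay below every control array, by 0.31 ± 0.05 (SE) with MG132 and 0.22 ± 0.05 with vehicle (limma adjusted p = 0.000148 and 0.00321). Fibroblast markers were bright (array means of 10 markers 9.82 to 10.15, with Fn1 and Col1a1 at the 99.7th and 93.4th percentile of genes and Vim above both, but Lum and Dcn at the 3.5th and 38.3rd), and the means of 6 other marker lists ran from 6.44 (macrophage) to 7.95 (neuron). The 5 neuron markers averaged 7.91 to 7.95 in knockdown arrays with MG132 and 7.73 to 7.80 with vehicle, and 7.88 to 7.94 in control arrays with MG132 and 7.61 to 7.70 with vehicle. Of these 5 markers, 1 passed as higher with MG132 in knockdown and 2 in control cells, and 0 as lower. Map2 (8.47 to 9.92) and Tubb3 (7.38 to 8.81) ranged widest over the 16 arrays. The part of the neuron markers in the MG132 results was not tested. Within groups, arrays spread along 1 gradient that held 37.8% of the within-group variance, with control MG132 4, knockdown vehicle 1, control vehicle 1 and knockdown MG132 2 lowest and control vehicle 4 next to them. Deviations of 33 of the 42 members ran against it (median r = -0.63 over 16 arrays, against -0.14 for all genes), so these members tended to read high on the low arrays of their groups.

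**Figure D1:**
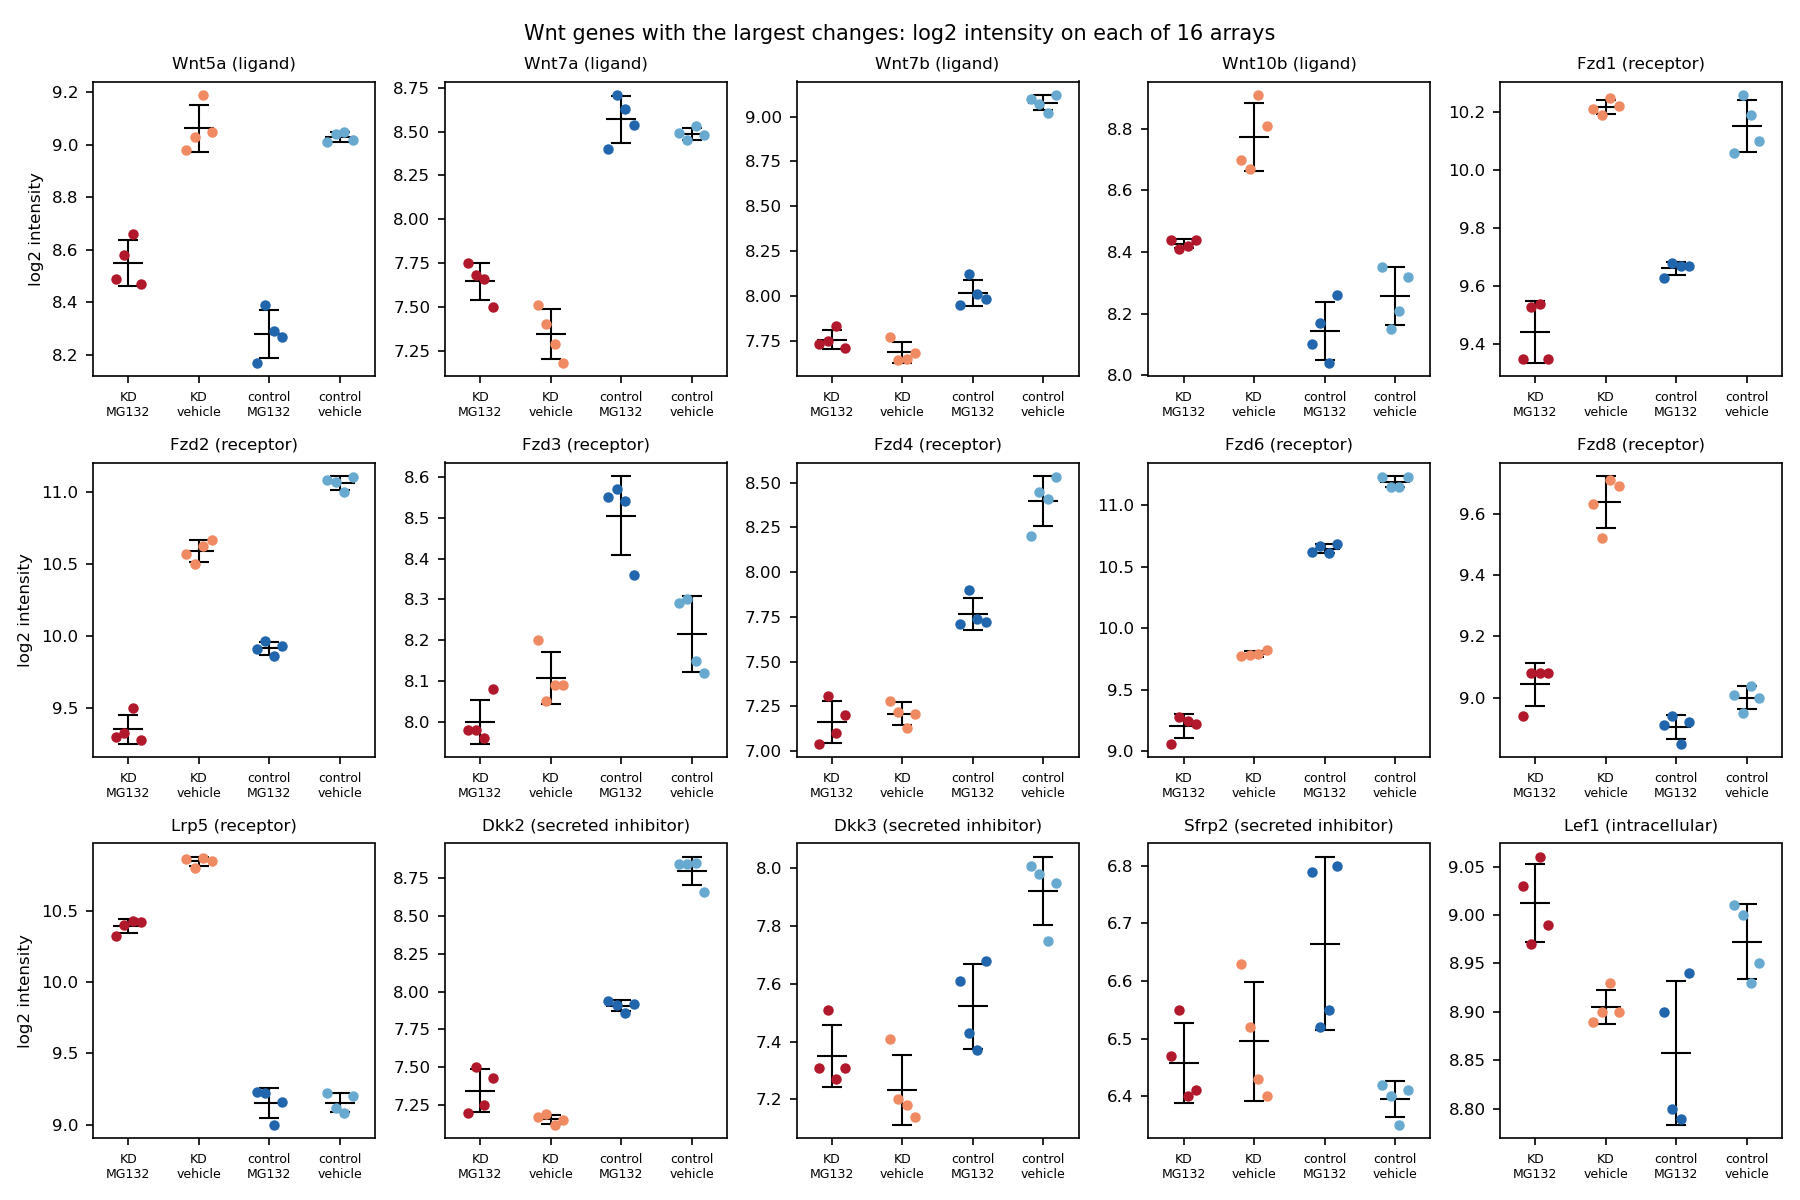
Log2 intensity (y axis, a separate scale in each panel) of the 15 Wnt module members with a change of at least 0.4 or a difference of responses past the threshold, on each of the 4 arrays of each group (points, in the order of replicate numbers), with mean and SD (bars). Lrp5 lies above 10.3 on all knockdown arrays and below 9.3 on all control arrays, and Fzd2 lies lower with MG132 than with vehicle in both lines.

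The first comparison asked how 8 h of MG132 changed the module in each line. Each array measured RNA of a whole plate, so fewer cells of a kind and less RNA per cell cannot be told apart. Receptors made up 6 of the 8 members that fell in knockdown cells and 5 of the 10 that fell in control cells: Fzd2, Fzd1, Fzd6 and the co-receptor Lrp6 were lower with MG132 in both lines, and so was Wnt5a, the 1 ligand called in both lines. Fzd8, Lrp5 and Wnt10b fell in knockdown cells, whereas Wnt7b, Dkk2, Fzd4 and Dkk3 fell in control cells. Of the 12 receptors 58.3% were called in either direction in knockdown and 50% in control cells. All 12 lay above the 25th percentile of gene means. With only genes above it kept, 53.4% and 47.7% of all genes kept were called. Nothing particular to receptors is drawn from these counts. In knockdown cells 6 members were higher and 8 lower (33.3% of 42), against 40.7% of all genes called (16.4% higher, 24.3% lower). In control cells 2 were higher and 10 lower (28.6%), against 35.8% of all genes called (16.8% higher, 19.0% lower). The arrays with MG132 and with vehicle did not overlap for 12 members in knockdown cells and for 12 in control cells, against 38.5% and 32.9% of all genes. The median log2 fold change of the members was 0.06 in knockdown and 0.01 in control cells, beside 0.03 and 0.03 for all genes. The 2 responses share no arrays; 7 members were called in both, 5 of them lower in both (Wnt5a, Fzd1, Fzd2, Fzd6, Lrp6) and 2 in opposite directions (Dkk2, Lef1). These are 16.7%, 11.9% and 4.76% of the members, against 26.2%, 15.6% and 1.04% of all genes. The 2 in opposite directions rest on rises in knockdown cells that lost their call after median centring (limma adjusted p = 0.0784 for Dkk2 and 0.451 for Lef1). No member was higher in both, against 9.55% of all genes.

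The count of higher members in knockdown cells moved with the processing. It was 6 higher and 8 lower as deposited, 3 and 10 after a second quantile normalization, 2 and 11 after centring each array on its median, 12 and 8 with array weights, 10 and 9 without the 4 arrays lowest on the gradient, 15 and 8 with control vehicle 4 left out in place of knockdown MG132 2 (where 53.1% of all genes were called), and 12 and 9 with the gradient as a covariate. Without knockdown vehicle 1 it was 11 higher, and without knockdown vehicle 4 or knockdown MG132 2 it was 3 higher. The share of all genes called in knockdown cells moved as well. It was 40.7% as deposited, 38.0% after a second quantile normalization, 38.3% after median centring and 53.6% with array weights. Without the 4 lowest arrays it was 46.1%, and with the covariate 51.0%. It was 47.1% without knockdown vehicle 1, 36.0% without knockdown vehicle 4 and 36.6% without knockdown MG132 2. With the gradient as a covariate 6 members were higher in control cells, against 2 as deposited. There 43.0% of all genes were called, against 35.8% as deposited.

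**Figure D2:**
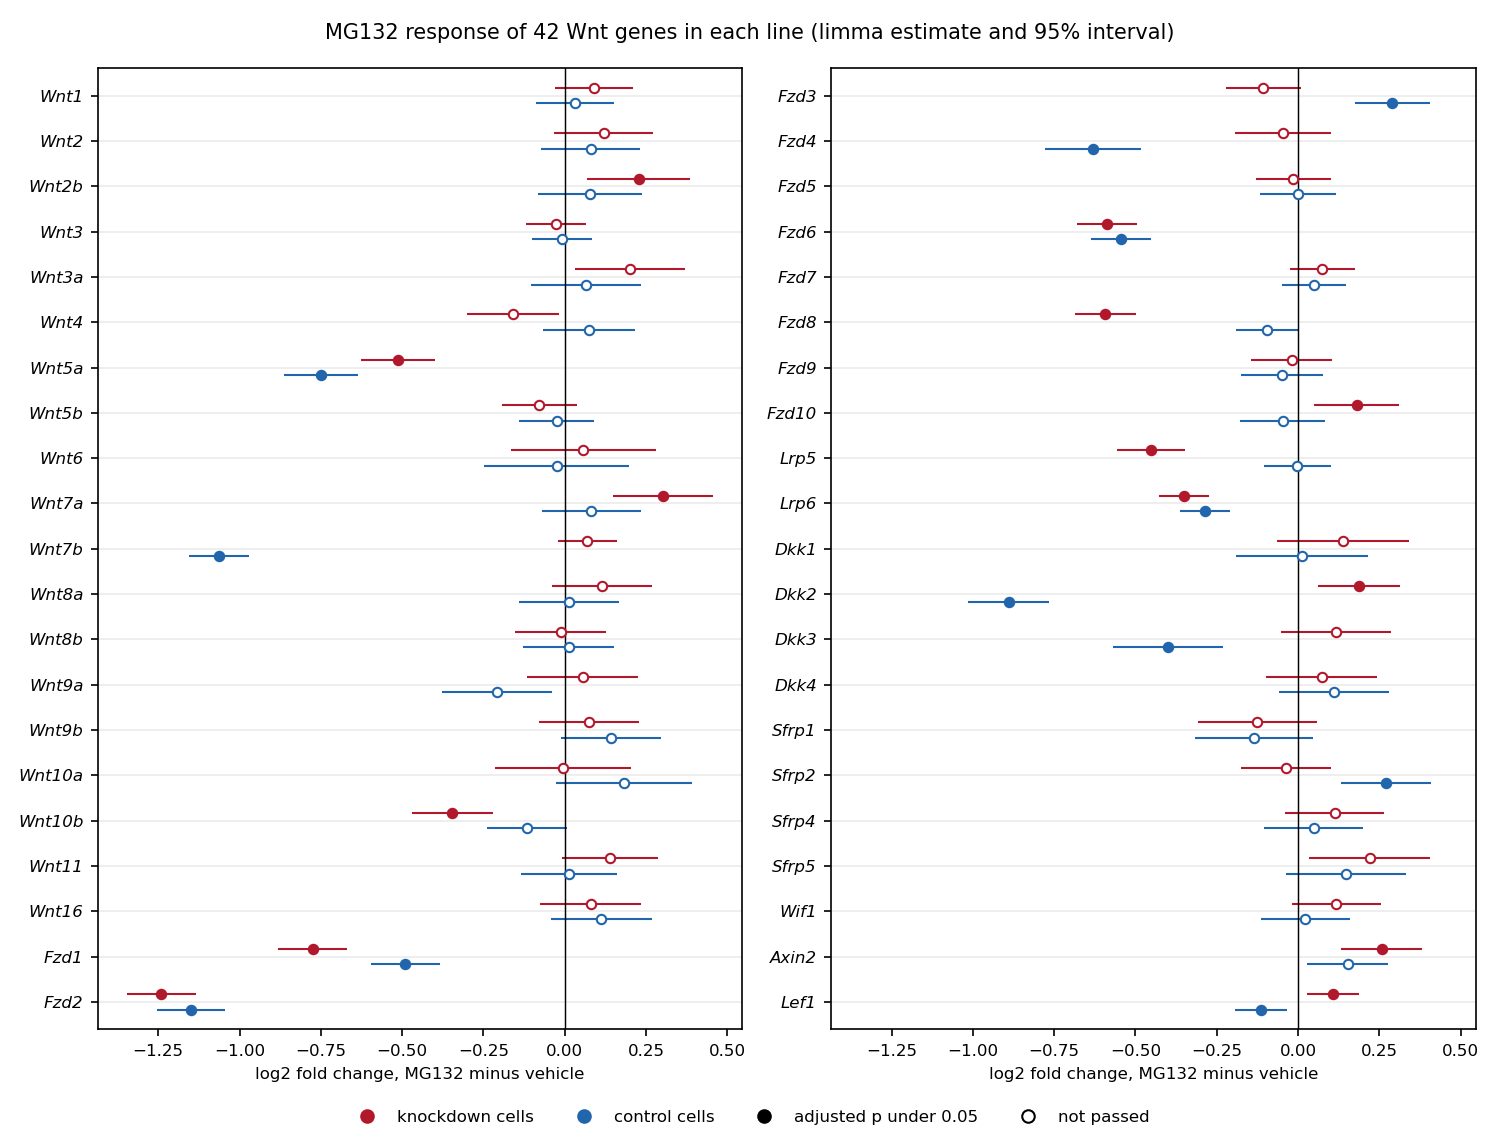
Log2 fold change with MG132 over vehicle (x axis) for each of the 42 members (rows), in knockdown and in control cells, as limma estimates with 95% intervals; filled points passed an adjusted p of 0.05. Fzd2, Fzd1, Fzd6, Wnt5a and Lrp6 lie left of 0 in both lines, and Wnt7b and Dkk2 lie left of 0 in control cells and near or right of it in knockdown cells.

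Among the receptors, Fzd2 had the largest fall in both lines. Fzd2 read 9.30, 9.33, 9.50 and 9.28 in knockdown cells with MG132, against 10.57, 10.50, 10.63 and 10.67 with vehicle. Control arrays of Fzd2 read 9.91, 9.97, 9.86 and 9.93 with MG132, against 11.09, 11.07, 11.00 and 11.11 with vehicle. Every array with MG132 lay below every array with vehicle of its line, and every knockdown array lay below the control arrays of the same treatment. The log2 fold change was -1.24 ± 0.05 (SE, n = 4 plates each; limma adjusted p = 8.58e-12) in knockdown cells and -1.15 ± 0.05, adjusted p = 2.04e-11 in control cells. The falls differed by -0.09 ± 0.07, with a 95% interval of -0.24 to 0.06 (limma adjusted p = 0.481), so a difference between the lines was not detected within that range.

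Fzd1, a Frizzled receptor that can signal through beta-catenin, fell in both lines and further in knockdown cells. Fzd1 read 9.35, 9.53, 9.54 and 9.35 in knockdown cells with MG132, against 10.21, 10.19, 10.25 and 10.22 with vehicle. Control arrays of Fzd1 read 9.63, 9.68, 9.67 and 9.67 with MG132, against 10.06, 10.26, 10.19 and 10.10 with vehicle. With vehicle the lines overlapped, and with MG132 every knockdown array lay below every control array. The changes were -0.78 ± 0.05, limma adjusted p = 2.25e-09 in knockdown cells and -0.49 ± 0.05, adjusted p = 5.33e-07 in control cells, and they differed by -0.29 ± 0.07, adjusted p = 0.012. The difference lost its call without control vehicle 1 and 4, knockdown vehicle 1 and control MG132 4 (limma adjusted p = 0.0968).

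Fzd6, a receptor best known for planar cell polarity in mouse skin and hair, fell in both lines, which differed in its level under each treatment. Fzd6 read 9.06, 9.28, 9.25 and 9.22 in knockdown cells with MG132, against 9.77, 9.78, 9.79 and 9.82 with vehicle. Control arrays of Fzd6 read 10.62, 10.67, 10.61 and 10.68 with MG132, against 11.23, 11.15, 11.15 and 11.23 with vehicle. The 4 groups did not overlap anywhere. MG132 changed it by -0.59 ± 0.04, limma adjusted p = 9.5e-09 in knockdown cells and -0.55 ± 0.04, adjusted p = 2.48e-08 in control cells, and the 95% interval of the difference was -0.17 to 0.09.

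Lrp6, the co-receptor that brings Axin to the membrane, read 10.81 to 10.92 with MG132 and 11.18 to 11.30 with vehicle in knockdown cells, and 10.73 to 10.83 with MG132 and 11.03 to 11.07 with vehicle in control cells. Arrays with MG132 lay below arrays with vehicle in both lines. The changes were -0.35 ± 0.04, limma adjusted p = 5.38e-07 in knockdown cells and -0.29 ± 0.04, adjusted p = 5.78e-06 in control cells, with a 95% interval of their difference of -0.17 to 0.05.

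Lrp5, its paralogue and partner co-receptor, fell in knockdown cells. Lrp5 read 10.32, 10.40, 10.43 and 10.42 in knockdown cells with MG132, against 10.86, 10.80, 10.87 and 10.85 with vehicle. Control arrays of Lrp5 read 9.23, 9.22, 9.0 and 9.16 with MG132, against 9.22, 9.12, 9.08 and 9.20 with vehicle. Knockdown arrays with MG132 lay below those with vehicle, whereas the control arrays of both treatments overlapped. The change was -0.45 ± 0.05, limma adjusted p = 8.65e-07 in knockdown cells and -0.00 ± 0.05, adjusted p = 0.977 in control cells, and the responses differed by -0.45 ± 0.07, adjusted p = 0.000367.

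Fzd8, a receptor with a high affinity for several Wnt ligands, also fell in knockdown cells. Fzd8 read 8.94, 9.08, 9.08 and 9.08 in knockdown cells with MG132, against 9.63, 9.52, 9.71 and 9.69 with vehicle. Control arrays of Fzd8 read 8.91, 8.94, 8.85 and 8.92 with MG132, against 9.01, 8.95, 9.04 and 9.0 with vehicle. The knockdown arrays with vehicle stood above those of all other groups. The changes were -0.59 ± 0.04, limma adjusted p = 1.37e-08 in knockdown cells and -0.10 ± 0.04, adjusted p = 0.117 in control cells, and they differed by -0.50 ± 0.06, adjusted p = 7.14e-05. After median centring the control response of Fzd8 also passed, as a fall (log2 fold change -0.15, limma adjusted p = 0.0212).

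Fzd4, the receptor of Norrin as well as of Wnt ligands, and Fzd3, known from axon guidance in mouse, changed in control cells. Fzd4 read 7.04, 7.31, 7.1 and 7.20 in knockdown cells with MG132, against 7.28, 7.22, 7.13 and 7.21 with vehicle. Control arrays of Fzd4 read 7.71, 7.90, 7.74 and 7.72 with MG132, against 8.20, 8.45, 8.41 and 8.53 with vehicle. Control arrays of Fzd4 fell with MG132 without overlap, while the knockdown arrays of both treatments overlapped below them all. The change was -0.05 ± 0.07, limma adjusted p = 0.61 in knockdown cells and -0.63 ± 0.07, adjusted p = 1.28e-06 in control cells, and the responses differed by 0.58 ± 0.10, adjusted p = 0.000809. Fzd3 read 7.98, 7.98, 7.96 and 8.08 in knockdown cells with MG132, against 8.20, 8.05, 8.09 and 8.09 with vehicle. Control arrays of Fzd3 read 8.55, 8.57, 8.54 and 8.36 with MG132, against 8.29, 8.30, 8.15 and 8.12 with vehicle. Fzd3 was the receptor that rose in control cells: control arrays with MG132 were the highest of all 16. The changes were -0.11 ± 0.05, adjusted p = 0.13 in knockdown cells and 0.29 ± 0.05, adjusted p = 0.000359 in control cells, and they differed by -0.40 ± 0.08, adjusted p = 0.00217. After a second quantile normalization and after median centring Fzd3 passed as a fall in knockdown cells (log2 fold change -0.15 and -0.17, limma adjusted p = 0.0205 and 0.0180).

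Fzd10 read 7.35 to 7.51 with MG132 and 7.18 to 7.34 with vehicle in knockdown cells and passed as higher (0.18 ± 0.06, limma adjusted p = 0.0265), but it lost the call without knockdown vehicle 3 or 4 or knockdown MG132 1 or 2 (adjusted p 0.074 to 0.0891) and after a second quantile normalization or median centring (adjusted p 0.165 and 0.129). Fzd10 ran against the within-group gradient (r = -0.81). Fzd5, Fzd7 and Fzd9 did not pass in either line, with log2 fold changes between -0.05 and 0.08.

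Among the ligands, Wnt5a, which signals mostly without beta-catenin and is a common fibroblast ligand, fell in both lines. Wnt5a read 8.49, 8.58, 8.66 and 8.47 in knockdown cells with MG132, against 8.98, 9.03, 9.19 and 9.05 with vehicle. Control arrays of Wnt5a read 8.17, 8.39, 8.29 and 8.27 with MG132, against 9.01, 9.04, 9.05 and 9.02 with vehicle. Vehicle arrays of the lines overlapped near 9, and with MG132 every knockdown array stood above every control array. The changes were -0.51 ± 0.05, limma adjusted p = 5.87e-07 in knockdown cells and -0.75 ± 0.05, adjusted p = 7.18e-09 in control cells. Their difference of 0.24 ± 0.08 passed narrowly (limma adjusted p = 0.0449) and lost the call when any of 12 single arrays was left out (adjusted p 0.0583 to 0.097: control vehicle 1 to 4, knockdown vehicle 1, 2 and 4, control MG132 1, 3 and 4, knockdown MG132 2 and 3), and after median centring (0.102).

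Wnt7b, a ligand known for lung and kidney growth in mouse, fell in control cells. Wnt7b read 7.73, 7.75, 7.83 and 7.71 in knockdown cells with MG132, against 7.77, 7.64, 7.65 and 7.68 with vehicle. Control arrays of Wnt7b read 7.95, 8.12, 8.01 and 7.98 with MG132, against 9.10, 9.07, 9.02 and 9.12 with vehicle. Control arrays with vehicle stood about 1 unit above those with MG132, and all knockdown arrays lay lower still, with both treatments overlapping. The change was 0.07 ± 0.04, limma adjusted p = 0.214 in knockdown cells and -1.06 ± 0.04, adjusted p = 9.39e-12 in control cells. The responses differed by 1.13 ± 0.06, adjusted p = 9.83e-09, the largest such difference among the 42 members.

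Wnt10b, a ligand known to hold back fat cell formation in mouse, fell in knockdown cells. Wnt10b read 8.44, 8.41, 8.42 and 8.44 in knockdown cells with MG132, against 8.70, 8.67, 8.91 and 8.81 with vehicle. Control arrays of Wnt10b read 8.10, 8.17, 8.04 and 8.26 with MG132, against 8.35, 8.15, 8.21 and 8.32 with vehicle. Knockdown arrays with MG132 lay below those with vehicle, and the control arrays overlapped. The changes were -0.35 ± 0.06, limma adjusted p = 0.000112 in knockdown cells and -0.12 ± 0.06, adjusted p = 0.147 in control cells, and the difference of -0.23 ± 0.08 did not pass (adjusted p = 0.075). After median centring the control response passed as a fall (log2 fold change -0.17, limma adjusted p = 0.0358).

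Wnt7a, known for limb patterning in mouse, rose in knockdown cells. Wnt7a read 7.75, 7.68, 7.66 and 7.50 in knockdown cells with MG132, against 7.51, 7.40, 7.29 and 7.18 with vehicle. Control arrays of Wnt7a read 8.40, 8.71, 8.63 and 8.54 with MG132, against 8.49, 8.45, 8.53 and 8.48 with vehicle. In knockdown cells 3 of the arrays with MG132 lay above all arrays with vehicle and 1 lay just below the highest of them, and in control cells the treatments overlapped. The changes were 0.30 ± 0.07, limma adjusted p = 0.00265 in knockdown cells and 0.08 ± 0.07, adjusted p = 0.429 in control cells. Wnt2b, a canonical ligand, read 7.04 to 7.28 with MG132 and 6.80 to 7.08 with vehicle in knockdown cells and passed as higher (0.23 ± 0.07, adjusted p = 0.0222). It lost the call without knockdown vehicle 3 or 4 or knockdown MG132 2 or 3 (adjusted p 0.0525 to 0.0845) and after a second quantile normalization or median centring (adjusted p 0.1 and 0.0628). The other 14 ligands were not called in either line. Of these, Wnt9a changed by -0.21 ± 0.08, limma adjusted p = 0.0539 in control cells and passed as a fall under 7 other settings and without knockdown vehicle 1, control MG132 4 or knockdown MG132 2.

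Among the secreted inhibitors, Dkk2, which binds LRP5 and LRP6, fell in control cells by 1.85-fold on the linear scale. Dkk2 read 7.20, 7.50, 7.25 and 7.43 in knockdown cells with MG132, against 7.17, 7.19, 7.12 and 7.15 with vehicle. Control arrays of Dkk2 read 7.94, 7.91, 7.86 and 7.92 with MG132, against 8.84, 8.84, 8.85 and 8.66 with vehicle. Control arrays with vehicle were the highest of all, control arrays with MG132 came next, and knockdown arrays lay below both. The change was 0.19 ± 0.06, limma adjusted p = 0.0171 in knockdown cells and -0.89 ± 0.06, adjusted p = 3.07e-09 in control cells, and the responses differed by 1.08 ± 0.08, adjusted p = 4.72e-07. The rise in knockdown cells lost its call without knockdown MG132 2 or 4 (adjusted p 0.0588 to 0.0707) and after a second quantile normalization or median centring (adjusted p 0.0905 and 0.0784).

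Dkk3, a Dkk family member whose part in Wnt signalling is less clear, also fell in control cells. Dkk3 read 7.31, 7.51, 7.27 and 7.31 in knockdown cells with MG132, against 7.41, 7.20, 7.18 and 7.14 with vehicle. Control arrays of Dkk3 read 7.61, 7.43, 7.37 and 7.68 with MG132, against 8.01, 7.98, 7.75 and 7.95 with vehicle. Control arrays with MG132 lay below those with vehicle, and knockdown arrays overlapped. The changes were 0.12 ± 0.08, limma adjusted p = 0.256 in knockdown cells and -0.40 ± 0.08, adjusted p = 0.000621 in control cells, and they differed by 0.52 ± 0.11, adjusted p = 0.00503. Sfrp2, a secreted Frizzled-related protein that binds Wnt ligands, rose in control cells. Sfrp2 read 6.47, 6.55, 6.40 and 6.41 in knockdown cells with MG132, against 6.63, 6.52, 6.43 and 6.40 with vehicle. Control arrays of Sfrp2 read 6.79, 6.52, 6.55 and 6.80 with MG132, against 6.42, 6.40, 6.35 and 6.41 with vehicle. Control arrays with MG132 stood above those with vehicle, most of all on arrays 1 and 4, which read 6.79 and 6.80. It changed by -0.04 ± 0.07, adjusted p = 0.672 in knockdown cells and rose by 0.27 ± 0.07 in control cells (limma adjusted p = 0.00313). The difference of -0.31 ± 0.09 (adjusted p = 0.0332) lost its call when any of 10 single arrays was left out (adjusted p 0.0508 to 0.0749: control vehicle 2, 3 and 4, knockdown vehicle 1 and 2, control MG132 1 and 4, knockdown MG132 1, 3 and 4), and Sfrp2 ran against the within-group gradient (r = -0.86). The other 6 inhibitors (Dkk1, Dkk4, Sfrp1, Sfrp4, Sfrp5 and Wif1) were not called in either line.

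Of the intracellular members, Axin2, a scaffold of the destruction complex and a feedback target of beta-catenin, rose in knockdown cells. It read 8.02, 8.00, 8.14 and 8.03 with MG132 and 7.85, 7.72, 7.87 and 7.72 with vehicle in knockdown cells, which did not overlap, and 8.30, 8.20, 8.07 and 8.30 with MG132 and 8.14, 8.06, 7.94 and 8.12 with vehicle in control cells, which did. The changes were 0.26 ± 0.06, limma adjusted p = 0.00176 in knockdown cells and 0.15 ± 0.06, adjusted p = 0.0534 in control cells, and their difference was 0.11 ± 0.08, adjusted p = 0.488. The control rise of Axin2 passed with the 25th percentile filter or array weights (limma adjusted p = 0.0403 and 0.0347). It also passed without control vehicle 1 or control MG132 3 (0.0405 and 0.0101). A rise confined to knockdown cells is therefore not shown. Lef1, a transcription factor that carries beta-catenin to target genes, moved little and in opposite directions. Lef1 read 9.03, 8.97, 9.06 and 8.99 in knockdown cells with MG132, against 8.89, 8.90, 8.93 and 8.90 with vehicle. Control arrays of Lef1 read 8.90, 8.80, 8.79 and 8.94 with MG132, against 9.01, 9.0, 8.93 and 8.95 with vehicle. Knockdown arrays with MG132 lay above those with vehicle without overlap, and the control arrays overlapped. The changes were 0.11 ± 0.04, limma adjusted p = 0.0314 in knockdown cells and -0.12 ± 0.04, adjusted p = 0.0246 in control cells, and they differed by 0.22 ± 0.05, adjusted p = 0.00982. The rise lost its call without knockdown vehicle 1, 2 or 4 or knockdown MG132 1 or 3 (adjusted p 0.0558 to 0.088) or after median centring (0.451), and the fall lost it without control vehicle 1 or 2 or control MG132 2 or 3 (adjusted p 0.0662 to 0.0815).

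The second comparison set the knockdown line against the control line under each treatment. Lrp5 was 2.36-fold higher with MG132 and 3.23-fold higher with vehicle in knockdown cells; the receptor with the largest drop was Fzd6 (-1.44 and -1.40 on the log2 scale). The ligands Wnt7a and Wnt7b, the inhibitor Dkk2 and the receptor Fzd4 were also lower in knockdown cells under both treatments, and Fzd8, Fzd7, Wnt10b and Lrp6 were higher under both. With MG132, 7 members were higher and 12 lower in knockdown cells (45.2% of 42), against 38.1% of all genes called (17.7% higher, 20.3% lower). With vehicle, 6 were higher and 11 lower (40.5%), against 39.4% of all genes called (21.5% higher, 17.9% lower). The lines did not overlap for 15 members with MG132 and for 17 with vehicle, against 34.7% and 38.7% of all genes. The median log2 fold change of the members was -0.05 with MG132 and -0.08 with vehicle, beside 0.00 and -0.01 for all genes, and the median size of change was 0.13 and 0.14, beside 0.09 and 0.10. The 2 line comparisons share no arrays: 14 members were called in both, 5 higher and 9 lower, none in opposite directions, and 20 were called in neither. Of the members 33.3% were called in both (11.9% higher, 21.4% lower), against 28.5% of all genes (14.1% higher, 13.4% lower, 0.978% in opposite directions). With the gradient as a covariate 10 members were higher with vehicle in place of 6, and 44.9% of all genes were called in place of 39.4%. With only genes above the 25th percentile of gene means kept, 19 of 39 members passed with MG132 and 17 with vehicle. Of all genes kept, 49.5% and 51.8% passed.

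**Figure D3:**
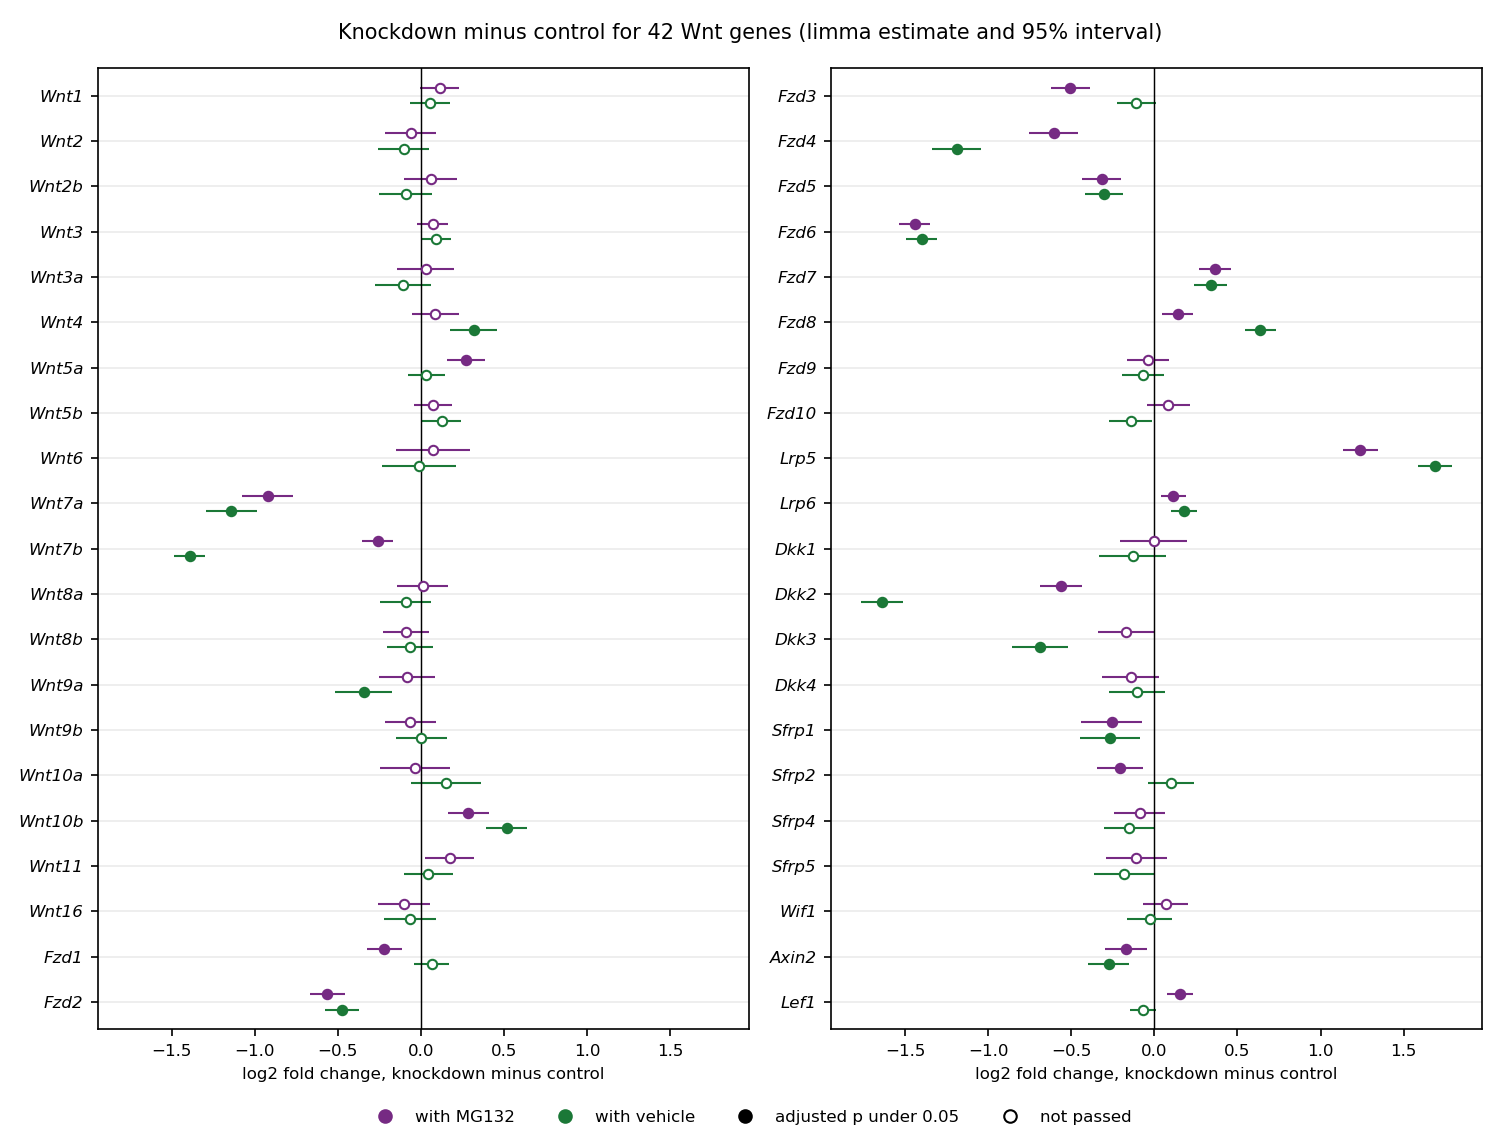
Log2 fold change of knockdown over control cells (x axis) for each of the 42 members (rows), with MG132 and with vehicle, as limma estimates with 95% intervals; filled points passed an adjusted p of 0.05. Lrp5 lies farthest right under both treatments, and Dkk2, Wnt7b, Fzd6, Fzd4 and Wnt7a lie below -1 with vehicle.

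Receptors moved both ways between the lines: 4 were higher and 6 lower with MG132, and 4 higher and 4 lower with vehicle. Of the 12 receptors 83.3% and 66.7% were called, against 38.1% and 39.4% of all genes. All 12 lie above the 25th percentile of gene means, and 49.5% and 51.8% of all genes kept there were called. The arrays of Lrp5 given above lay at 10.32 or more in knockdown and at 9.23 or less in control cells, and the difference was 1.24 ± 0.05, limma adjusted p = 1.88e-12 with MG132 and 1.69 ± 0.05, adjusted p = 2.46e-14 with vehicle. Fzd8 was higher by 0.14 ± 0.04, adjusted p = 0.0195 with MG132 and by 0.64 ± 0.04, adjusted p = 3.18e-09 with vehicle. The call with MG132 was lost without control MG132 3 or knockdown MG132 2, 3 or 4 (adjusted p 0.0543 to 0.0618).

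Fzd7, a receptor often seen in stem and progenitor cells, read 10.43, 10.40, 10.43 and 10.35 in knockdown and 10.00, 10.13, 10.06 and 9.96 in control cells with MG132. With vehicle Fzd7 read 10.34, 10.27, 10.37 and 10.33 in knockdown and 10.12, 9.92, 9.94 and 9.97 in control cells. All 8 knockdown arrays lay above all 8 control arrays, by 0.37 ± 0.05, adjusted p = 5.74e-06 with MG132 and 0.34 ± 0.05, adjusted p = 1.15e-05 with vehicle (limma). MG132 itself changed Fzd7 by less than 0.1 in either line. Lrp6 was higher by 0.12 ± 0.04 with MG132 (adjusted p = 0.0177, and 0.055 to 0.0573 without control MG132 1 or knockdown MG132 4) and by 0.18 ± 0.04, adjusted p = 0.00065 with vehicle.

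Fzd6 was the receptor lowest in knockdown relative to control cells, with non-overlapping arrays under both treatments: -1.44 ± 0.04, limma adjusted p = 5.05e-14 with MG132 and -1.40 ± 0.04, adjusted p = 5.69e-14 with vehicle. Fzd4 was changed by -0.61 ± 0.07, adjusted p = 1.7e-06 with MG132 and -1.19 ± 0.07, adjusted p = 2.86e-10 with vehicle. Fzd2 was changed by -0.57 ± 0.05, adjusted p = 6.43e-08 with MG132 and -0.48 ± 0.05, adjusted p = 4.69e-07 with vehicle. Fzd5, a receptor needed for yolk sac vessels in mouse, read 8.13 to 8.29 in knockdown and 8.49 to 8.56 in control cells with MG132, and 8.14 to 8.35 in knockdown and 8.42 to 8.65 in control cells with vehicle. The lines did not overlap for Fzd5 under either treatment, and the differences were -0.32 ± 0.05, adjusted p = 0.000138 with MG132 and -0.30 ± 0.05, adjusted p = 0.000207 with vehicle. Fzd3 and Fzd1 were lower with MG132 (-0.51 and -0.22, adjusted p = 7.68e-07 and 0.00181), and with vehicle their differences of -0.11 and 0.07 did not pass (adjusted p = 0.141 and 0.367).

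Among the 19 ligands, 2 were higher and 2 lower in knockdown cells with MG132, and 2 higher and 3 lower with vehicle. Thus 21.1% and 26.3% of the ligands were called, against 38.1% and 39.4% of all genes. Wnt7a was lower on every knockdown array than on every control array, with differences of -0.92 ± 0.07, limma adjusted p = 1.59e-08 with MG132 and -1.14 ± 0.07, adjusted p = 8.14e-10 with vehicle. For Wnt7b the difference was -0.26 ± 0.04, adjusted p = 9.88e-05 with MG132 and -1.39 ± 0.04, adjusted p = 6.56e-14 with vehicle, so the lines stood closer with MG132, which lowered the control level. Wnt10b was higher in knockdown cells under both treatments, by 0.29 ± 0.06, adjusted p = 0.000703 with MG132 and 0.52 ± 0.06, adjusted p = 1.24e-06 with vehicle. Wnt5a was higher by 0.27 ± 0.05, adjusted p = 0.000528 with MG132, and with vehicle it differed by 0.03 ± 0.05, adjusted p = 0.71.

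Wnt4, a ligand of kidney and reproductive tract development, is the member with 2 single-symbol probe sets. The brighter one read 8.52, 8.46, 8.46 and 8.38 in knockdown and 8.14, 8.07, 8.14 and 8.20 in control cells with vehicle, without overlap, a difference of 0.32 ± 0.07, adjusted p = 0.000848. With MG132 it differed by 0.09 ± 0.07, adjusted p = 0.377. The other probe set averaged 8.10 with MG132 and 8.56 with vehicle in knockdown cells, and 7.84 with MG132 and 7.82 with vehicle in control cells. On that probe set the line differences were 0.26 ± 0.06, limma adjusted p = 0.00223 with MG132 and 0.75 ± 0.06, limma adjusted p = 2.68e-08 with vehicle. The same probe set also fell with MG132 in knockdown cells (-0.47 ± 0.06, limma adjusted p = 9.07e-06), and its responses differed between the lines (-0.49 ± 0.09, limma adjusted p = 0.00131), where the brighter one gave -0.16 ± 0.07, adjusted p = 0.0715, and -0.23 ± 0.09, adjusted p = 0.12. Both probe sets pointed the same way in these 4 comparisons, but only the dimmer one passed in 3 of them. Wnt9a, known from joint formation in mouse, read 8.64, 8.34, 8.52 and 8.38 in knockdown and 8.76, 8.83, 8.75 and 8.92 in control cells with vehicle and was lower there (-0.35 ± 0.08, adjusted p = 0.00196). With MG132 the lines overlapped (-0.08 ± 0.08, adjusted p = 0.493).

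The secreted inhibitors that were called between the lines were lower in knockdown cells, 3 of 9 under each treatment. Of all genes 20.3% were lower with MG132 and 17.9% with vehicle. Nothing particular to inhibitors is drawn from counts of 9 genes. Dkk2 was lower on all 8 knockdown arrays than on all 8 control arrays (-0.56 ± 0.06, limma adjusted p = 5.61e-07 with MG132, and -1.64 ± 0.06, adjusted p = 4.36e-13 with vehicle). Dkk3 did not pass with MG132 (-0.17 ± 0.08, adjusted p = 0.106) and was lower with vehicle (-0.69 ± 0.08, adjusted p = 1.56e-06). Sfrp1, which binds Wnt ligands outside the cell, read 6.89 to 7.12 in knockdown and 7.02 to 7.35 in control cells with MG132, and 7.0 to 7.18 in knockdown and 7.13 to 7.58 in control cells with vehicle. The ranges of Sfrp1 overlapped under both treatments. Its differences of -0.26 ± 0.09 with MG132 and -0.27 ± 0.09 with vehicle passed (adjusted p = 0.0246 and 0.0189), and were lost without control MG132 2 or 4 or knockdown MG132 1 or 2 with MG132 (adjusted p 0.0637 to 0.0748) and without control vehicle 2 or knockdown vehicle 2 with vehicle (adjusted p 0.0626 to 0.0783). Both were also lost without the 4 arrays lowest on the gradient (adjusted p 0.171 with MG132 and 0.0678 with vehicle). Sfrp2 was lower with MG132, at -0.21 ± 0.07 (adjusted p = 0.0174, and 0.0522 to 0.0686 without control MG132 1 or 4 or knockdown MG132 3).

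Axin2 was lower in knockdown cells, at -0.17 ± 0.06, adjusted p = 0.0297 with MG132 and -0.28 ± 0.06, adjusted p = 0.000964 with vehicle, where the arrays did not overlap. The call with MG132 was lost without control MG132 1 or 4 or knockdown MG132 1, 2 or 4 (adjusted p 0.0643 to 0.097) and after a second quantile normalization (0.0544). Lef1 was higher in knockdown cells with MG132, all 4 arrays lying above the 4 control arrays (0.16 ± 0.04, limma adjusted p = 0.00311), and with vehicle it differed by -0.07 ± 0.04, adjusted p = 0.191.

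Gene start windows are shown for the 3 members with the largest line or MG132 change among those with a RefSeq entry whose window ends at the gene start, so the sequence stands beside genes whose levels changed. Each is the 250 bases before the start in GRCm38.p6, read 5′ to 3′ on the strand of the gene, with matches to the searched motifs in capitals.
Fzd4 (chr7:89404116-89404365, plus strand): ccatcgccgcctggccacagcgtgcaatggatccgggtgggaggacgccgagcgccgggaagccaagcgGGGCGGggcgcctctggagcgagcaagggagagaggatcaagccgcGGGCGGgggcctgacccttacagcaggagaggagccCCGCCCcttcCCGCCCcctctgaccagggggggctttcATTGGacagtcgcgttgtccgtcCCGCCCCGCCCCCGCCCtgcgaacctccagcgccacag
Wnt7a (chr6:91411354-91411603, minus strand): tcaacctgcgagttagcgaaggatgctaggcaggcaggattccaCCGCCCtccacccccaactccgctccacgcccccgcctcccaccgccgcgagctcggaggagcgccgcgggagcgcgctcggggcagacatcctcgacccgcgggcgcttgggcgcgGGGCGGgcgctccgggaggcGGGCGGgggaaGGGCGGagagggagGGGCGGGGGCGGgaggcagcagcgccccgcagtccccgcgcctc
Fzd1 (chr5:4758217-4758466, minus strand): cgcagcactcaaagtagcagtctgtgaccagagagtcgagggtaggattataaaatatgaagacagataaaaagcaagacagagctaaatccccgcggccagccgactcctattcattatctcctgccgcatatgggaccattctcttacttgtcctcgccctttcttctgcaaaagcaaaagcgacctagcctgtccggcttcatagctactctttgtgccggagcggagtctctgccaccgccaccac

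The motifs searched on both strands were the TCF/LEF site CTTTGAT, the short CRE site TGACGT, the C/EBP-ATF site TGATGCA, the AP-1 site TGACTCA, the GC box GGGCGG and the CCAAT box CCAAT. The Fzd4 window (72.8% G and C) held 7 GC boxes and 1 CCAAT box, the Wnt7a window (77.6%) held 6 GC boxes, and the Fzd1 window (51.2%) held none of these letters. Overlapping or adjoining GC boxes run together in the capitals. Over the 34 windows of 28 members with an entry, 25 held a GC box and 10 a CCAAT box, where 32.7% and 33.9% of all 32851 windows did. The TCF/LEF letters were in 2 member windows (Wnt5b, Wnt11) and in 3.21% of all windows, the short CRE site in 2 (both Wnt11) and in 6.47%, AP-1 in 1 (Wnt5b) and in 4.46%, and the C/EBP-ATF letters in 0 and in 2.68%. The median G and C content was 66.6% in member windows and 52.4% in all. A match describes letters in these windows and is not shown to be a bound site.

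The third comparison asked whether the 2 lines responded differently to MG132. It was positive where the knockdown response lay above the control response. Of the 42 members 11 passed (6 positive, 5 negative, 26.2%), against 14.6% of all genes called (4.45% positive, 10.1% negative). The median over the members was 0.04 and over all genes -0.01. With only genes above the 25th percentile of gene means kept, 10 of 39 members passed (6 positive, 4 negative), against 21.5% of all genes kept. The share of all genes thus depends on how many dim genes are counted. The positive ones of the 11 included genes that MG132 lowered in control cells and that were low in knockdown cells with vehicle. Wnt7b, Dkk2, Fzd4 and Dkk3 were all lower in knockdown than in control cells with vehicle, at -1.39, -1.64, -1.19 and -0.69. They averaged 7.69, 7.16, 7.21 and 7.23 in knockdown cells with vehicle, inside the 6.44 to 7.95 of the 6 other marker lists. The top of that range comes from the neuron list. In control cells Dkk3 averaged 7.92 with vehicle and 7.52 with MG132, also inside the range. Wnt7b, Dkk2 and Fzd4 started above it there, at 9.08, 8.80 and 8.40 with vehicle. A further fall from low levels can be compressed, and whether MG132 could have lowered these genes in knockdown cells was not tested. The negative ones included Lrp5 and Fzd8, which were higher in knockdown cells with vehicle (by 1.69 and 0.64) and fell there with MG132. These comparisons share arrays, so the values stand side by side and are not independent.

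By role, 2 of 19 ligands were positive and 0 negative, 1 of 12 receptors positive and 4 negative, 2 of 9 inhibitors positive and 1 negative, and Lef1 of the intracellular members positive. Over all genes 4.45% were positive and 10.1% negative. The levels show the shape of the largest differences. Wnt7b averaged 7.76 ± 0.05 with MG132 and 7.69 ± 0.06 with vehicle in knockdown cells, and 8.02 ± 0.07 with MG132 and 9.08 ± 0.04 with vehicle in control cells (SD, n = 4 each). Dkk2 averaged 7.35 ± 0.14 with MG132 and 7.16 ± 0.03 with vehicle in knockdown cells, and 7.91 ± 0.03 with MG132 and 8.80 ± 0.09 with vehicle in control cells. In both genes the knockdown levels of either treatment lay below the control level with MG132.

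**Figure D4:**
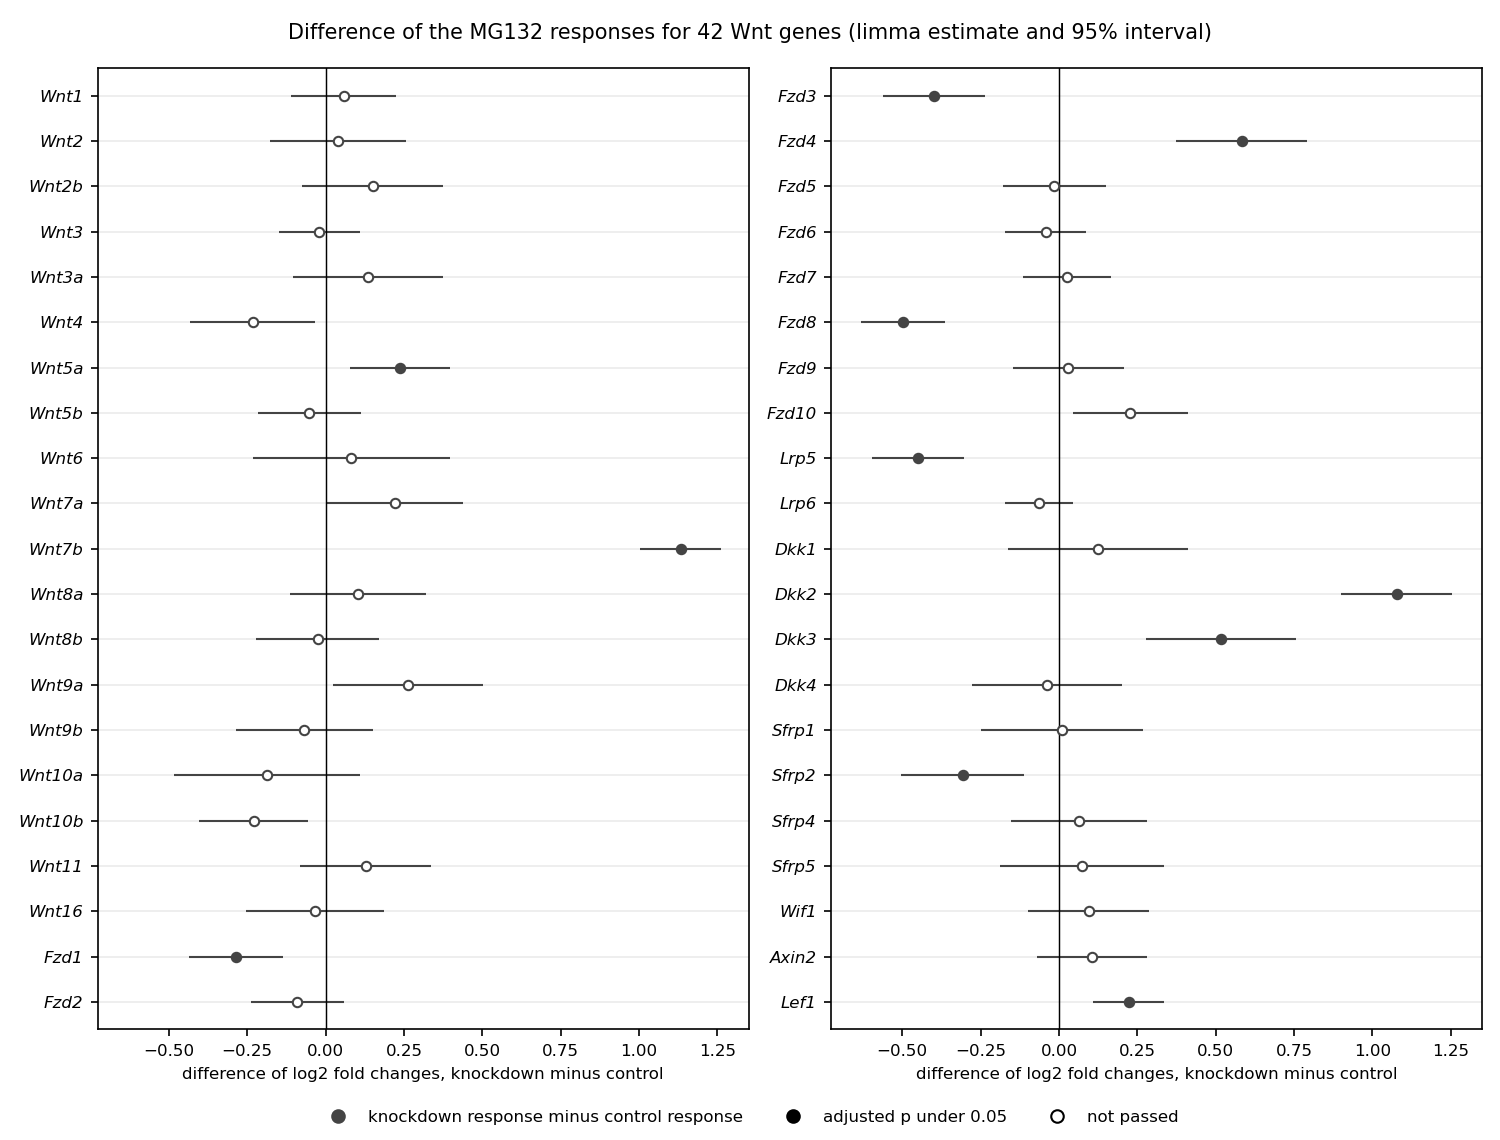
Difference of the log2 MG132 responses, knockdown minus control (x axis), for each of the 42 members (rows), as limma estimates with 95% intervals; filled points passed an adjusted p of 0.05. Wnt7b and Dkk2 lie above 1, Fzd4 and Dkk3 above 0.5, and Fzd8 and Lrp5 lie near -0.5.

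The 18 members called in no comparison were 12 ligands (Wnt1, Wnt2, Wnt3, Wnt3a, Wnt5b, Wnt6, Wnt8a, Wnt8b, Wnt9b, Wnt10a, Wnt11 and Wnt16), Fzd9, and the inhibitors Dkk1, Dkk4, Sfrp4, Sfrp5 and Wif1. Wnt3a, the ligand most used to switch on the canonical branch in culture, read 7.66 to 7.80 with MG132 and 7.41 to 7.71 with vehicle in knockdown cells, and the change was 0.20 ± 0.08, limma adjusted p = 0.0563. Sfrp5 changed by 0.22 ± 0.09 there (adjusted p = 0.0545), and Wnt11 differed between the lines with MG132 by 0.17 ± 0.07 (adjusted p = 0.0633). Each of these 3 passed under some of the other settings tried. Of all 42 members 25 had a mean below the median gene mean of 8.18, and Sfrp2, Sfrp4 and Wnt8b lay below the 25th percentile of 6.71, where changes on arrays can be compressed.

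Other genes of the pathway were counted in 4 lists, which can be set beside the shares of all genes: 16.4% higher and 24.3% lower with MG132 in knockdown cells, 16.8% and 19.0% in control cells, 17.7% and 20.3% between the lines with MG132, 21.5% and 17.9% with vehicle, and 4.45% positive and 10.1% negative for the difference of the responses. Nothing particular to a list is drawn from these counts. Among 28 extracellular and membrane regulators, 3 were higher and 10 lower with MG132 in knockdown cells, and 3 higher and 8 lower in control cells. The inhibitor Apcdd1 changed by -0.86 ± 0.04, limma adjusted p = 1.83e-11 in knockdown cells and -0.53 ± 0.04, adjusted p = 4.86e-09 in control cells, and the Dkk co-receptor Kremen1 by -0.62 ± 0.03, adjusted p = 2.29e-10 in knockdown cells and -0.41 ± 0.03, adjusted p = 3.11e-08 in control cells. Between the lines, 7 regulators were higher and 7 lower with MG132, and 7 higher and 4 lower with vehicle. Igfbp4, a secreted binding protein that can also block Frizzled and LRP6, averaged 8.35 ± 0.07 in knockdown and 10.11 ± 0.01 in control cells with MG132, and 8.10 ± 0.11 in knockdown and 10.41 ± 0.03 in control cells with vehicle (SD, n = 4). It was lower in knockdown cells by more than any of the 42 members (-1.76 ± 0.05, adjusted p = 1.3e-14 with MG132, and -2.31 ± 0.05, adjusted p = 3.57e-16 with vehicle). The glypican Gpc4 was lower too (-0.91 with MG132 and -0.95 with vehicle). Rspo3, a secreted protein that raises receptor levels at the membrane, was higher in knockdown cells (0.66 ± 0.10 with MG132 and 0.88 ± 0.10 with vehicle, adjusted p = 6.18e-05 and 2.39e-06), and its receptor Lgr4 was higher by 0.53 ± 0.08, adjusted p = 3.56e-05 with MG132 and by 0.90 ± 0.08, adjusted p = 6.49e-08 with vehicle.

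Of 22 cytoplasmic and nuclear core genes measured, 7 were higher and 7 lower with MG132 in knockdown cells, and the same numbers in control cells. Dvl2, which relays the receptor signal, rose by 0.35 ± 0.04 in knockdown and 0.55 ± 0.04 in control cells (limma adjusted p = 2.84e-06 and 1.74e-08), while Bcl9l, a beta-catenin coactivator, changed by -0.60 ± 0.04 in knockdown and -0.50 ± 0.04 in control cells (adjusted p = 3.07e-09 and 2.54e-08). Between the lines, 3 core genes were higher and 11 lower with MG132, and 6 higher and 8 lower with vehicle. The corepressor Tle4 had the largest difference, -1.02 ± 0.08, adjusted p = 1.03e-08 with MG132 and -1.14 ± 0.08, adjusted p = 2.05e-09 with vehicle.

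Of 16 target genes reported for the canonical branch, 4 were higher and 5 lower with MG132 in knockdown cells, and 0 higher and 8 lower in control cells (median log2 fold change 0.05 and -0.13, beside 0.03 and 0.03 for all genes). Tcf7l2 is counted in this list and among the core genes. Ccnd1, which encodes cyclin D1, averaged 12.50 ± 0.03 with MG132 and 13.13 ± 0.03 with vehicle in knockdown cells, and 12.13 ± 0.05 with MG132 and 13.16 ± 0.02 with vehicle in control cells. It fell by 0.63 in knockdown and by 1.03 in control cells (limma adjusted p = 1.5e-10 and 2.45e-13), and the falls differed by 0.40 ± 0.05, adjusted p = 2.13e-05. Id2 and Bmp4 averaged lower with MG132 in both lines. Id2 averaged 11.82 with MG132 and 12.66 with vehicle in knockdown cells, and 11.13 and 11.56 in control cells. For Bmp4 the averages in this order were 10.34, 10.95, 9.69 and 10.39. Ccn4 and Ccn1, secreted matrix-associated proteins, rose in knockdown cells (by 0.22 ± 0.04 and 0.30 ± 0.04) and fell in control cells (-0.46 ± 0.04 and -0.39 ± 0.04). Their responses differed by 0.69 and 0.69 (limma adjusted p = 3.14e-07 and 5.67e-07). The list had 5 positive and 2 negative differences in all. Between the lines, 8 targets were higher and 2 lower with MG132, and 3 higher and 5 lower with vehicle, and Id2, a helix-loop-helix inhibitor, was higher under both (0.68 with MG132 and 1.10 with vehicle, adjusted p = 3.3e-09 and 4.38e-12). These genes answer to other signals as well.

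Of 13 planar polarity genes, 4 were higher and 3 lower with MG132 in knockdown cells, and 2 higher and 4 lower in control cells. Fat4, a large atypical cadherin, averaged 8.16 ± 0.05 with MG132 and 9.75 ± 0.09 with vehicle in knockdown cells, and 7.51 ± 0.07 with MG132 and 8.44 ± 0.05 with vehicle in control cells. It fell in both lines (-1.59 ± 0.05, limma adjusted p = 2.87e-13 in knockdown, and -0.93 ± 0.05, adjusted p = 1.5e-10 in control cells) and was higher in knockdown cells (0.65 with MG132 and 1.31 with vehicle). Between the lines, 3 were higher and 3 lower with MG132 and 3 higher and 4 lower with vehicle. Vangl1, a core polarity membrane protein, was higher in knockdown cells (0.53 with MG132, 0.66 with vehicle), and the cadherin Celsr2 was lower (-0.44 with MG132, -0.84 with vehicle).

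**Figure D5:**
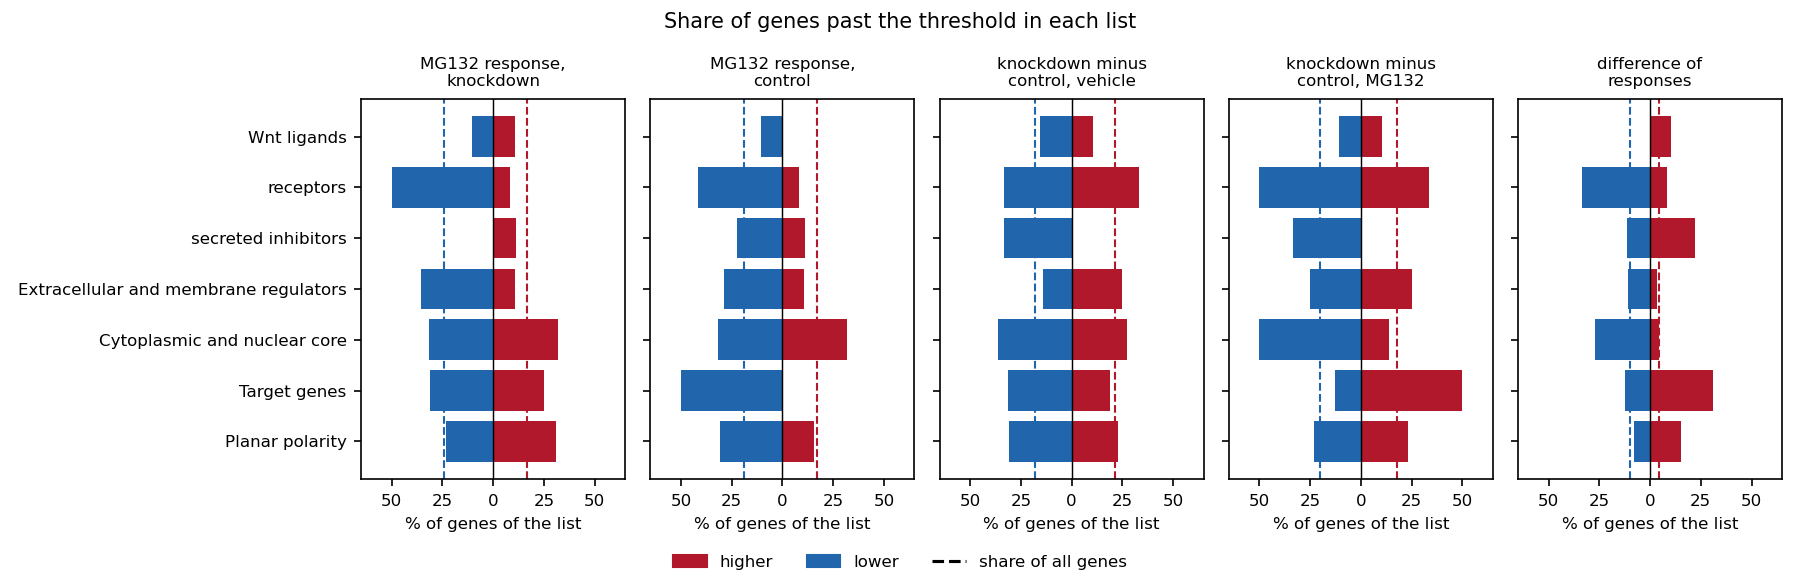
Share of the genes of each list (rows, in percent of the list) that were higher (right of 0) or lower (left of 0) at an adjusted p under 0.05 in the 5 comparisons (panels); dashed lines mark the shares over all 19938 genes. Receptors have the longest bars to the left in the MG132 response of knockdown cells, and Wnt ligands stay inside the dashed lines in the 4 comparisons of 2 groups.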

How the data were processed

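Expression was measured on 16 arrays of 4 groups of 4 plates. The authors deposited log2 probe set intensities rounded to 2 decimals for 35556 probe sets. Per the submitters' processing notes RMA and Partek were used. Their versions, settings and background correction were not given in the sources used here. RMA makes array distributions alike and can hide a shift shared by most genes. No detection calls were used, so no gene is called absent.

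Groups came from the sample titles and labels. Of 23410 probe sets in the platform table, 21789 carried 1 gene symbol, 1621 with several were left out, and the probe set with the highest mean over 16 arrays stood for each of 999 genes with several, which left 19938 genes. The linear model (limma 3.58.1, R 4.3.3, functions lmFit and eBayes) had 1 mean per group over the 16 arrays, with residual and prior degrees of freedom of 12 and 4.12, and 5 two-sided contrasts were tested with Benjamini-Hochberg adjustment over all genes at 0.05. The fit was run on simulated data with independent noise for each gene and array. Such data lack the within-group gradient, so the run cannot show how the fit behaves with it. The smallest exact permutation p for 4 against 4 arrays is 0.0286, reached wherever arrays did not overlap. The members and lists were chosen with earlier results of these data known. Values of every array are given for members that passed without overlap and changed by at least 0.4, or passed in the difference of the responses; other pathway genes were named as up to 4 per list and comparison with the largest changes that passed, and a part of these is printed. Of the symbols in the lists, Tcf7 was not analysed here. Promoter windows are RefSeq's (GRCm38.p6). Alternatives were a second quantile normalization, median centring, a filter at the 25th percentile, the mean over probe sets of a gene, all probe sets, only the groups compared, a trended robust prior, array weights, a block for the replicate number, and omission of each array. After the data were seen, 3 more were added: omission of the 4 arrays lowest on the within-group gradient, omission of that set with control vehicle 4 in place of knockdown MG132 2, and the gradient score as a covariate. Figures were drawn with matplotlib 3.10.9 (Python 3.11.15).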

Additional observations from a re-analysis of the deposited data

Results flagged for a closer look

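A single array stood apart from the other 3 of its group for 11 of the 168 groups of 4 arrays examined (42 members in 4 groups), where chance gives about 1 in 20. High arrays were Dkk3 on knockdown MG132 2 (7.51, others 7.27 to 7.31), Fzd3 on knockdown MG132 4 (8.08, others 7.96 to 7.98), Fzd10 and Wnt2 on control MG132 4 (7.57, others 7.28 to 7.32, and 7.17, others 7.01 to 7.02), Fzd4 on control MG132 2 (7.90, others 7.71 to 7.74) and Wnt3 on control vehicle 1 (7.25, others 7.12 to 7.13). Low arrays were Fzd8 on knockdown MG132 1 (8.94, others 9.08), Fzd3 on control MG132 4 (8.36, others 8.54 to 8.57), Wnt2b on control MG132 3 (6.87, others 7.14 to 7.15) and on control vehicle 2 (6.89, others 7.03 to 7.05), and Dkk2 on control vehicle 4 (8.66, others 8.84 to 8.85). Control MG132 4 accounts for 3 of the 11 and is the lowest array of the within-group gradient; a part of the gradient in these readings was not tested.

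The MG132 response differed between knockdown and control cells for 11 members by the interaction term of the limma fit. It was higher in knockdown than in control cells for Wnt7b (1.13), Dkk2 (1.08), Fzd4 (0.58), Dkk3 (0.52), Wnt5a (0.24) and Lef1 (0.22). It was lower for Fzd8 (-0.50), Lrp5 (-0.45), Fzd3 (-0.40), Sfrp2 (-0.31) and Fzd1 (-0.29). Of these, Wnt5a, Sfrp2 and Fzd1 lost the call under at least 1 other setting.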

How the results depend on the processing

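The members made 73 calls over the 5 comparisons. No call changed direction under any alternative, 59 kept their side of the threshold under all of them, and 14 lost it under at least 1, of which 13 did so when 1 array was left out. Another 48 results of members passed under at least 1 alternative. The count of called members stayed within 1.5 times the value reported except in the MG132 response of knockdown cells, where 23 were called (15 higher, 8 lower) without control vehicle 1 and 4, knockdown vehicle 1 and control MG132 4, against 14. Without the 4 arrays lowest on the gradient, which have knockdown MG132 2 in place of control vehicle 4, it was 19, and with the gradient as a covariate 21 (12 higher and 9 lower). The gradient as a covariate also moved the higher members of the control response to 6 from 2 and of the lines with vehicle to 10 from 6. There 43.0% and 44.9% of all genes were called, against 35.8% and 39.4% as deposited. The covariate was made from the arrays' own deviations from group means, so it leaves fold changes as they were and removes spread. The counts with it are therefore no independent check. Why the counts moved when arrays were left out was not tested. Without those 4 lowest arrays the lines with MG132 no longer passed for Axin2, Fzd8, Lrp6 and Sfrp1 (adjusted p 0.0854 to 0.171), the lines with vehicle for Sfrp1 (0.0678), the knockdown response for Dkk2 (0.0876) and the difference for Sfrp2 and Wnt5a (0.0688 and 0.156). With control vehicle 4 in that set, the lines with MG132 no longer passed for Axin2, Lrp6 and Sfrp2 (0.0545 to 0.0775), nor the difference for Fzd1, Sfrp2 and Wnt5a (0.0968 to 0.142). Lef1 also missed the threshold with a trended robust prior in both responses (0.0720 in knockdown and 0.0593 in control cells) and with only the groups compared in control cells (0.0833), as did Lrp6 between the lines with MG132 (0.0551). Leaving out 1 array gave 11 (without knockdown vehicle 4) to 19 (without knockdown vehicle 1) members in the knockdown response, 11 to 13 in the control response, 16 to 20 between the lines with MG132, 16 to 20 with vehicle and 9 to 12 for the difference of the responses. The labels do not say what the replicate numbers share. Over 24 pairs of same-numbered plates the correlation of deviations from group means ran from -0.50 to 0.40 and was above 0.1 in 10. These deviations also carry the within-group gradient, so they cannot settle whether the numbers pair the plates. With the replicate block the counts in that order were 14, 12, 20, 17 and 11, against 14, 12, 19, 17 and 11 without it. The added member was Dkk4, lower in knockdown cells with MG132 (-0.14, limma adjusted p = 0.0383 with the block and 0.194 without). Dkk4 also passed with the gradient as a covariate (0.0483), which left its fold change as it was and adds no independent support. Median centring moved the median of all genes by at most 0.06. With 4 plates a group, small changes of dim members such as Sfrp2 rest on few arrays.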

Other observations

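The ligands Wnt7a and Wnt7b were both lower in knockdown cells, but MG132 lowered the control level of Wnt7b, at -1.06 on the log2 scale, while that of Wnt7a changed by 0.08 (adjusted p = 0.429). Of the Wnt regulators, Igfbp4 shared with Dkk2 the pattern of a low level in knockdown cells, a fall with MG132 in control cells (-0.30) and a positive difference of responses (0.56, adjusted p = 4.04e-05).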
